A study of Mus musculus with 15 samples.

Results

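Transcript levels of 8 genes of B cells and plasma cells were examined in the brown adipose tissue of mice given bisphenol S (BPS) or vehicle. The genes were Cd79a, Cd79b, Ms4a1, Cd37, Cd22, Cr2, Jchain and Mzb1, and they were found by symbol in the authors' table, where they make up 8 of 16774 genes. Brown adipose tissue is the heat-producing fat depot of rodents, and bisphenol S has taken the place of bisphenol A in many plastics and papers. The tissue was profiled by bulk RNA sequencing in 7 BPS libraries and 8 vehicle (Veh) libraries, called BPS 1 to 8 and Veh 1 to 8 after the numbers in their titles, with no BPS 7. According to its title, the series asks how an environmental exposure to BPS bears on this tissue in aging. Genotype, strain, sex, age, dose, route and duration of either treatment are not given in the sources used here. Nothing in the labels says whether libraries came from separate cages or litters, so p-values measure the spread between these libraries. Whole tissue was extracted without sorting cells. Fewer B cells and less RNA per B cell therefore cannot be told apart.

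B cells recognise antigen through a receptor made of a membrane-bound antibody and a signalling pair, CD79A and CD79B. When antigen binds, tyrosines in the tails of that pair are phosphorylated and recruit the kinase SYK, while co-receptors such as CR2 lower the threshold and CD22 raises it. Activated B cells can become plasma cells, which secrete antibody and depend on a large endoplasmic reticulum, where MZB1 assists antibody assembly and the joining chain links antibody units into polymers. Fat depots hold resident B cells, and a lymph node or lymphoid cluster can be taken with the tissue at dissection.

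The signalling pair is shown first by the part of its coding sequence that gives it its function, the immunoreceptor tyrosine-based activation motif. The stretch runs from the first tyrosine codon of the motif to the codons that close it after the second, as read from the GENCODE M21 transcripts, and capitals mark the 2 tyrosine codons. Both stretches are 45 bases long and 31 of these bases are identical.
Cd79a, chromosome 7: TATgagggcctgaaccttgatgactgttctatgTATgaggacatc
Cd79b, chromosome 11: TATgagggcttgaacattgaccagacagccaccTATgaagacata
The bases after each tyrosine codon are largely alike, and most of the differences lie in the stretch just before the second.

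Promoter windows of 300 bases, from 250 before to 50 after the transcription start, were taken from RefSeq on GRCm38.p6 for 5 of the genes, namely Cd79a, Cd37, Cd22, Cr2 and Jchain. They are given as background, and no link between these windows and the levels of the genes was tested. Both windows below are written 5′ to 3′ on the strand of the gene, with matches to any of 4 searched motifs in capitals. The first is that of the B cell receptor subunit and the second that of the antibody joining chain.
Cd79a, chr7:24897247-24897546, plus strand: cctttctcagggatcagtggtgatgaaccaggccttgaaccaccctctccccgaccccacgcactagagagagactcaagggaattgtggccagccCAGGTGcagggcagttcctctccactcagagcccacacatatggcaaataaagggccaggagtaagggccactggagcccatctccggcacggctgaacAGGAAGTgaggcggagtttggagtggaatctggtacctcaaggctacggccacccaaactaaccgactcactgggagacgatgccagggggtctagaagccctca
Jchain, chr5:88527848-88528147, minus strand: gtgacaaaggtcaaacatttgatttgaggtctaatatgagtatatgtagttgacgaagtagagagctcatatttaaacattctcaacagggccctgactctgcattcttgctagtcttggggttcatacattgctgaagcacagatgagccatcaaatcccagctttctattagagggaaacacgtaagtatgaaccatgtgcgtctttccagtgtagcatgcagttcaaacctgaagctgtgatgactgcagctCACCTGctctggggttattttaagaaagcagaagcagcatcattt

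The motifs searched on both strands were the octamer ATGCAAAT, the EBF core CCCNNGGG, the ETS motif AGGAAGT and the E-box CAGGTG, none of which overlapped another in these windows. Cd79a and Cd37 held AGGAAGT, with its first base at -55 and -25 from the start, a motif present in 9.57% of 27025 promoters. CAGGTG was found in all 5 windows, at -154 in Cd79a, -175 in Cd37, -245 in Cd22, -88 in Cr2 and 5 in Jchain, and in 20.0% of promoters. Cd22 held CCCNNGGG at -48, which 13.4% of promoters hold. The octamer, present in 1.75% of promoters, was not in these 5 windows. For Cd37, Cd22 and Cr2 the start used by the promoter table lies inside the gene's annotated extent. These matches describe letters only.

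FPKM, fragments scaled by transcript length and library total, summed to between 756556 in BPS 4 and 920855 in Veh 7, and 11527 to 12306 genes reached 1 FPKM. The depth in reads is unknown. Ucp1, the uncoupling protein that defines brown adipocytes, was at 82.28 FPKM in BPS 4 and at 578.32 to 1960.37 in the other BPS libraries, against 358.08 to 2320.65 in Veh libraries. Within the BPS group, 4 libraries stood apart. The mean level of Y-linked transcripts (Kdm5d, Uty, Ddx3y and Eif2s3y) was 0.529% of the Veh mean in BPS 4, 49.0% in BPS 5, 73.2% in BPS 6 and 32.0% in BPS 8, against 97.4% to 100% in BPS 1, 2 and 3 and 80.4% to 117% in the Veh libraries. Transcripts of H2-Ea-ps, an MHC class II pseudogene, were at 4 to 15.32 FPKM in the same 4 BPS libraries and at 0 in the other 11. Acta1, the actin of skeletal muscle, was at 8023.79, 8219.59 and 2597.93 FPKM in Veh 2, 6 and 8. It was at 11.92 to 697.55 in the other Veh libraries and at 1.3 to 1207.24 in BPS libraries. Whether these 4 libraries came from animals of the same sex and strain as the rest, or from 1 animal each, was not tested, so the contrast of 7 BPS with 8 Veh libraries rests on the labels. The change of each of the 8 genes is therefore given with all 15 libraries and again without BPS 4, 5, 6 and 8.

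None of the 8 genes differed between BPS and Veh brown fat past the threshold, and their levels in the 2 groups overlapped for 8 of 8 genes. The test was limma on log2(FPKM + 1) over the 12156 genes that reached 1 FPKM in 7 or more libraries, with p adjusted after Benjamini and Hochberg and a threshold of 0.05. It called 50 genes, or 0.411%, with 42 higher and 8 lower in BPS, counts that ranged from 0 to 59 and from 1 to 23 as each library was left out in turn. Groups did not overlap for 70 of the 12156 genes, or 0.576%. Cd79a, Cd79b, Ms4a1, Cd37, Jchain and Mzb1 passed the filter on low values, and 0 of these 6 were called or had an unadjusted p under 0.05, a level that 2803 of the 12156 genes reached. Cd22 and Cr2 missed the filter and were read from a fit without it, which called 9 of 16774 genes, or 0.0537%. Without BPS 4, 5, 6 and 8, limma called 34 of 11885 genes, or 0.286%, and 0 of the 5 of these genes that it tested. Ms4a1, Cd22 and Cr2 missed the filter there. They had limma adjusted p of 0.792 to 0.913 in the fit without it. In the authors' deposited table, q-values under 0.05 were given for 961 of 16747 genes, or 5.74%, and for 0 of these 8.

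**Figure D1:**
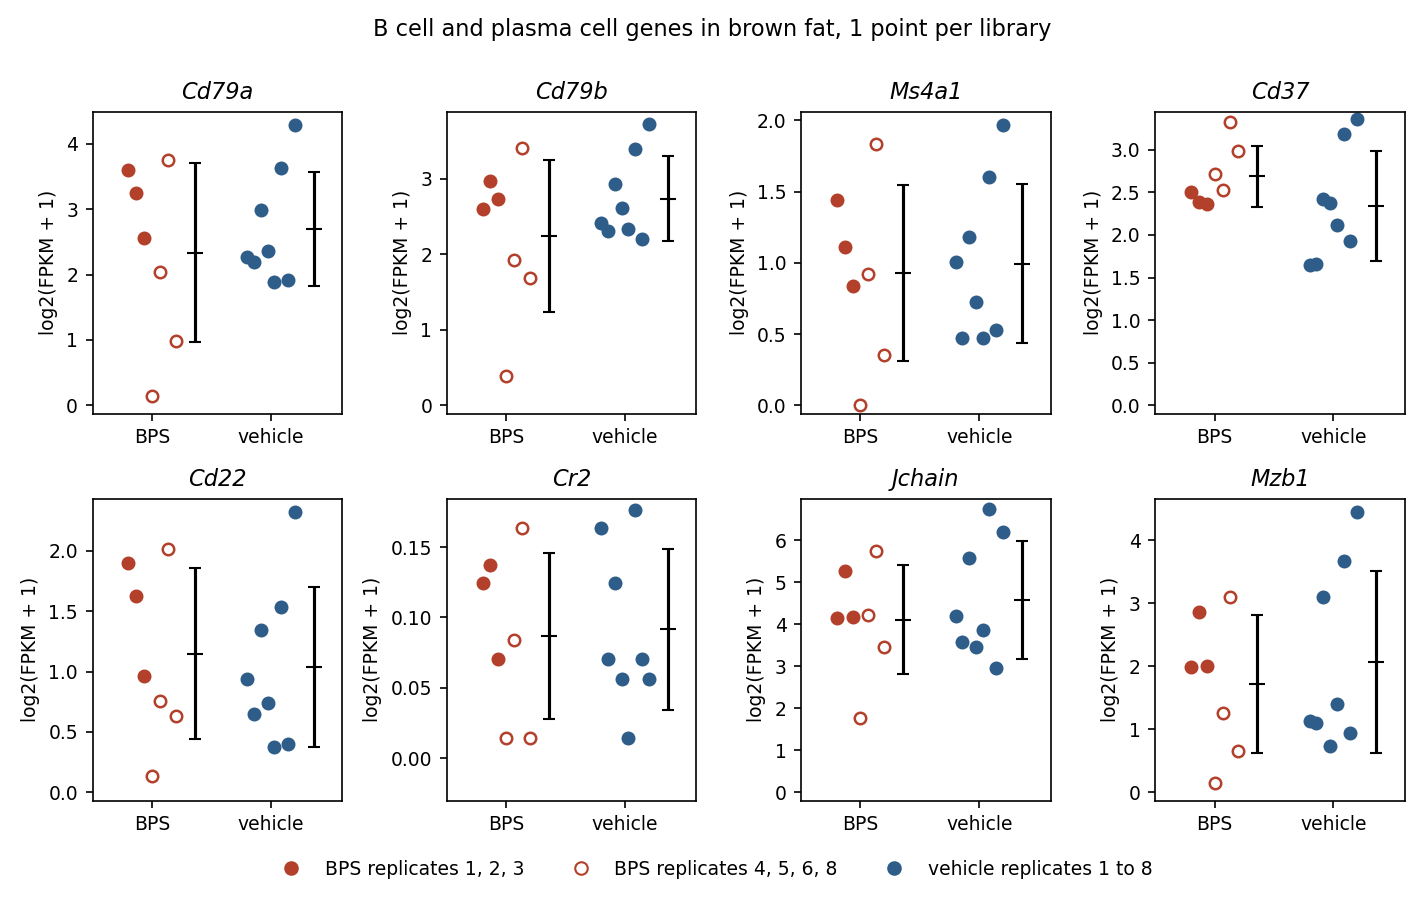
Level of each of the 8 genes as log2(FPKM + 1), 1 point per library, with BPS left and vehicle right; open points are BPS 4, 5, 6 and 8, and bars give the mean ± SD (n = 7 and n = 8). The ranges of the groups overlap in all 8 panels, and BPS 4 is lowest or tied for lowest in 7 of them, the exception being Cd37.

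The receptor's signalling pair was present in nearly all libraries and varied widely within both groups. Cd79a (Entrez 12518, chromosome 7, 24897497 to 24901858 on GRCm38.p6) ranged over 0.1, 4.92 and 12.56 FPKM (lowest, median and highest) in BPS libraries, against 2.68, 3.985 and 18.56 in Veh libraries. BPS 4 at 0.1 and BPS 8 at 0.98 lay below every Veh library, while BPS 1, 2, 3 and 6 at 4.92 to 12.56 lay among the higher Veh libraries. The highest value of the Veh group was 6.93 times the lowest. Mean levels were 5.91 ± 4.92 FPKM in BPS libraries and 6.74 ± 5.59 in Veh libraries (SD, n = 7 and 8). The log2 change of Cd79a, BPS minus Veh, was -0.36 ± 0.548 (limma SE, adjusted p = 0.71), and p was 0.554 in an exact permutation test, two-sided, over the 6435 ways to divide the libraries. An interval of 2 SE on either side ran from -1.45 to 0.74, so neither a fall nor a rise of moderate size is outside it. With BPS 1, 2 and 3 as the only BPS libraries, mean Cd79a was 8.2 ± 3.12 FPKM in BPS (n = 3) and the log2 change had the other sign, 0.449 ± 0.499 (limma adjusted p = 0.798).

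Cd79b (Entrez 15985, chromosome 11, 106311341 to 106314562) encodes the partner subunit. Its lowest, median and highest levels were 0.31, 5.04 and 9.6 FPKM in BPS libraries, against 3.58, 4.72 and 12.21 in Veh libraries. BPS 4, BPS 8 at 2.21 and BPS 5 at 2.79 lay below all Veh libraries, and the other 4 BPS libraries lay within the Veh range. Means were 4.64 ± 3.13 FPKM in BPS and 6.16 ± 3.12 in Veh libraries, and the log2 change was -0.49 ± 0.383 (limma adjusted p = 0.435, exact permutation p = 0.265). Without the 4 BPS libraries that stand apart the change was 0.03 ± 0.301 (limma adjusted p = 0.976), with 2 SE reaching from -0.57 to 0.63. The ratio of Cd79a to Cd79b in FPKM, which are scaled by length, was 0.323 in BPS 4, 0.443 in BPS 8 and 0.869 to 2.21 in the other BPS libraries, against 0.667 to 1.52 in Veh libraries. The 2 libraries with the least of both transcripts thus also had the lowest ratios, although Cd79a at 0.1 FPKM in BPS 4 makes that ratio imprecise.

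Among the surface molecules of B cells, Ms4a1 (Entrez 12482, chromosome 19, 11249679 to 11266149) encodes CD20, the target of B cell-depleting antibodies. It ranged over 0, 0.89 and 2.56 FPKM in BPS libraries and 0.39, 0.83 and 2.9 in Veh libraries. BPS 4 was listed at 0 and BPS 8 at 0.28, both below the Veh range, whereas BPS 6 at 2.56 was below Veh 8 alone. The log2 change was -0.07 ± 0.282 (limma adjusted p = 0.902, exact permutation p = 0.827), and 0.135 ± 0.312 without BPS 4, 5, 6 and 8 (limma adjusted p = 0.913). Only 7 of 15 libraries reached 1 FPKM, so Ms4a1 passed the filter by the smallest margin, and it missed the filter once those 4 libraries were left out.

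Cd22 (Entrez 12483, chromosome 7, 30865404 to 30880342) encodes an inhibitory lectin that binds sialic acid and dampens receptor signals. Its lowest, median and highest levels were 0.1, 0.95 and 3.04 FPKM in BPS libraries and 0.3, 0.795 and 4.01 in Veh libraries, and 6 of 15 libraries reached 1 FPKM. BPS 4 was lowest of all, and BPS 6, 1 and 2 at 3.04, 2.74 and 2.08 were exceeded by Veh 8 alone. In the fit without a filter the log2 change was 0.11 ± 0.329 (limma adjusted p = 0.874, exact permutation p = 0.76). With BPS 1, 2 and 3 alone it was 0.457 ± 0.38 (limma adjusted p = 0.792), with 2 SE from -0.3 to 1.22.

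Cr2 (Entrez 12902, chromosome 1, 195136811 to 195176880) encodes a complement receptor of mature B cells and of follicular dendritic cells. It was close to the limit of detection throughout, at 0.01, 0.06 and 0.12 FPKM in BPS libraries and 0.01, 0.05 and 0.13 in Veh libraries, and 0 of 15 libraries reached 1 FPKM. BPS 4, BPS 8 and Veh 5 shared the lowest value. The log2 change was -0.005 ± 0.0315 (limma without a filter, adjusted p = 0.946, exact permutation p = 0.879), and 0.019 ± 0.0395 without BPS 4, 5, 6 and 8 (limma adjusted p = 0.903). At such levels the log2(FPKM + 1) scale compresses differences, and no fold is given.

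Cd37 (Entrez 12493, chromosome 7, 45233632 to 45239340), a tetraspanin of B cells that other leukocytes also express, followed a different pattern in the BPS group. It ranged over 4.16, 4.76 and 9.05 FPKM in BPS libraries, against 2.13, 3.775 and 9.31 in Veh libraries. BPS 4 at 5.59 and BPS 8 at 6.94, which had the least Cd79a, were above 6 of the 8 Veh libraries for Cd37. The mean was 5.63 ± 1.79 FPKM in BPS and 4.55 ± 2.71 in Veh libraries, and the log2 change of 0.35 ± 0.255 did not pass (limma adjusted p = 0.403, exact permutation p = 0.222). In BPS 1, 2 and 3 alone it averaged 4.35 ± 0.269 FPKM, with a log2 change of 0.08 ± 0.343 (limma adjusted p = 0.943). The ratio of Cd37 to Cd79a in FPKM was 55.9 in BPS 4, where Cd79a was only 0.1 FPKM, and 7.08 in BPS 8. It was between 0.419 and 1.52 in the other 13 libraries. Beside this, the summed FPKM of 12 macrophage markers was 832 in BPS 4, 737 in BPS 8, 591 in BPS 5 and 520 in BPS 6, 283 to 338 in BPS 1, 2 and 3, and 284 to 432 in Veh libraries. The largest part of that sum was Lyz2, at 404.86 FPKM in BPS 4 and 352.69 in BPS 8. Of the 12 markers, 1 was lowest in BPS 4, Fcgr1 at 0.7 FPKM. Whether macrophages contributed the Cd37 transcripts was not tested.

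Of the 2 plasma cell genes Jchain had the highest level of the 8, and both varied more than the other tested genes of the group. Jchain (Entrez 16069, chromosome 5, 88519809 to 88527897), the joining chain of polymeric antibodies, ranged over 2.42, 17.05 and 52.98 FPKM in BPS libraries and 6.73, 15.47 and 106.25 in Veh libraries. BPS 4 alone lay below the Veh range, and Veh 6 and Veh 8, at 106.25 and 72.84, lay above every BPS library. Means were 22.0 ± 17.3 FPKM in BPS and 35.5 ± 36.7 in Veh libraries. The log2 change was -0.46 ± 0.659 (limma adjusted p = 0.688, exact permutation p = 0.525), and its 2 SE interval from -1.78 to 0.86 was the widest of the 8 genes. Without BPS 4, 5, 6 and 8 it was -0.04 ± 0.831 (limma adjusted p = 0.987).

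Mzb1 (Entrez 69816, chromosome 18, 35647265 to 35650266) encodes a chaperone of the endoplasmic reticulum found in marginal zone B cells and plasma cells. Levels were 0.11, 2.98 and 7.59 FPKM in BPS libraries and 0.67, 1.415 and 20.78 in Veh libraries. The Veh group fell into high values in Veh 3, 6 and 8, at 7.57, 11.74 and 20.78, and values of 0.67 to 1.64 in the other 5, so that its highest value was 31.0 times its lowest. BPS 4 and BPS 8, at 0.11 and 0.57, lay below all Veh libraries. The log2 change was -0.35 ± 0.63 (limma adjusted p = 0.753, exact permutation p = 0.607), and 0.218 ± 0.833 without the 4 BPS libraries (limma adjusted p = 0.937).

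**Figure D2:**
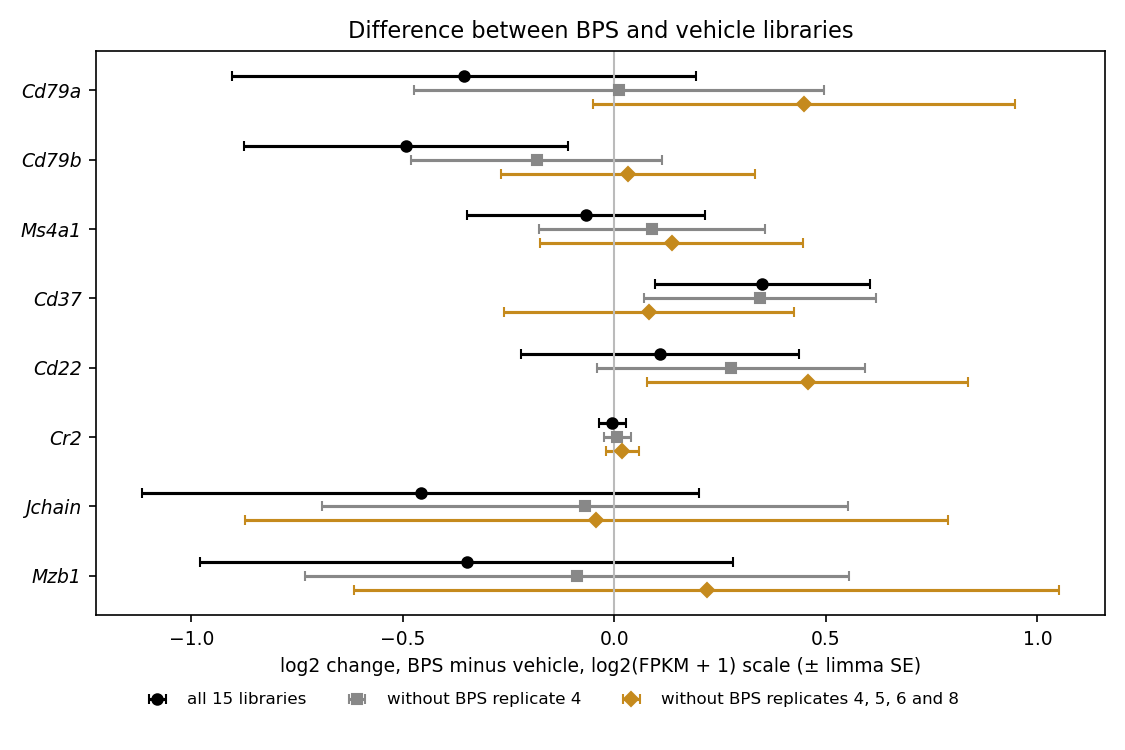
Log2 change of each gene, BPS minus vehicle, on the log2(FPKM + 1) scale with limma standard errors, for all 15 libraries (black circles), without BPS 4 (grey squares) and without BPS 4, 5, 6 and 8 (ochre diamonds). Cd79a moves from -0.36 to 0.01 and 0.449 across these sets, Cd37 stays positive, and no estimate passed the threshold.

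The summary over these genes moved towards 0 without BPS 4 and changed sign when groups of libraries were left out. The median log2 change over the 6 tested genes was -0.353, with 1 positive and 5 negative, beside a median of 0.046 over all 12156 genes. Without BPS 4 alone it was -0.029, with 3 positive and 3 negative, beside 0.042 over all genes. Without BPS 4, 5, 6 and 8 it was 0.081, with 4 positive and 1 negative of 5 tested, beside 0.008, and without Veh 2, 6 and 8 it was 0.105 over 5 tested. The summary used mattered too, since the BPS median in FPKM was above the Veh median for 8 of 8 genes while the BPS mean was above the Veh mean for 2 of 8, Cd37 and Cd22. In the authors' deposited table the log2 ratio of BPS to Veh was -0.247 for Cd79a, -0.468 for Cd79b, -0.153 for Ms4a1, 0.255 for Cd37, 0.146 for Cd22, -0.225 for Cr2, -0.758 for Jchain and -0.942 for Mzb1. The lowest q among these 8 in the authors' deposited table was 0.518, that of Mzb1.

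Spread within the groups was large for all 6 tested genes relative to other genes. The within-group SD of log2(FPKM + 1) was 1.35 for Jchain, 1.29 for Mzb1, 1.13 for Cd79a, 0.799 for Cd79b, 0.587 for Ms4a1 and 0.532 for Cd37, against a median of 0.229 over all genes tested. Smaller SDs were found for 98.6% of tested genes in the case of Jchain and for 91.0% in the case of Cd37, the ends of that range. In level, the order by median FPKM over 15 libraries was Jchain (17.05), Cd79b (5.04), Cd37 (4.35), Cd79a (4.15), Mzb1 (1.64), Cd22 (0.92), Ms4a1 (0.89) and Cr2 (0.05). Jchain was above Cd79b in 15 of 15 libraries, Mzb1 above Cd22 in 14 and Ms4a1 above Cr2 in 14. Neighbours in the middle could not be ordered: Cd37 exceeded Cd79a in 6 of 15 libraries, with a mean log2 gap of -0.02 ± 1.04 (SD), and the gap between Cd79b and Cd37 was 0.0 ± 0.83.

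The same libraries were high or low for most of the 8 genes. BPS 6, Veh 6 and Veh 8 were the 3 highest libraries for 6 of them, Cd22 and Cr2 being the exceptions, and BPS 4 and BPS 8 were the 2 lowest, ties included, for 5. Summed over the 8 genes, FPKM was 97.5 in BPS 6, 66.6 in BPS 2 and 8.64 in BPS 4, against 151 in Veh 6, 140.65 in Veh 8 and 17.6 in Veh 7. Across all 15 libraries, Spearman's rho with Cd79a was 0.961 for Cd22, 0.945 for Ms4a1 and 0.939 for Cd79b, with Pearson's r of 0.922, 0.946 and 0.946. For the plasma cell genes, rho was 0.871 for Mzb1 and 0.807 for Jchain (r of 0.887 and 0.872), and for Cr2 it was 0.631 (r of 0.66). Cd37 had the lowest rho, 0.414 (r of 0.358). These are descriptions over libraries that share their totals and their handling, and the genes were chosen as markers of related cells. The 2 libraries farthest from the median of Cd79a were BPS 4 and Veh 8. With these left out, rho was 0.94 for Cd22, 0.916 for Ms4a1, 0.907 for Cd79b and 0.802 for Mzb1. It was 0.782 for Cr2, 0.714 for Jchain and 0.456 for Cd37.

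Cd37 and Cr2 followed Cd79a less evenly across the groups than Ms4a1 and Cd22 did, as values with no test of the difference. The rho of Cd37 with Cd79a was -0.071 over the 7 BPS libraries and 0.762 over the 8 Veh libraries, and 0.891 over the 11 libraries without BPS 4, 5, 6 and 8. Cr2, at levels near the limit of detection, had 0.919 in the BPS and 0.337 in the Veh libraries and 0.387 over those 11. Ms4a1 had 0.964 in the BPS and 0.934 in the Veh libraries, and Cd22 had 1.0 and 0.976. In the BPS group Jchain and Mzb1 had 0.75 and 0.893, against 0.738 and 0.619 in the Veh group. The amount of Jchain per unit of Cd79a was 24.2 in BPS 4, 10.2 in BPS 8 and 1.5 to 5.59 in the other BPS libraries, against 2.4 to 9.31 in Veh libraries. Cd79a was at 0.1 FPKM in BPS 4, given to 2 decimals, so the ratio there is imprecise, and a low Cd79a raises any ratio to it.

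**Figure D3:**
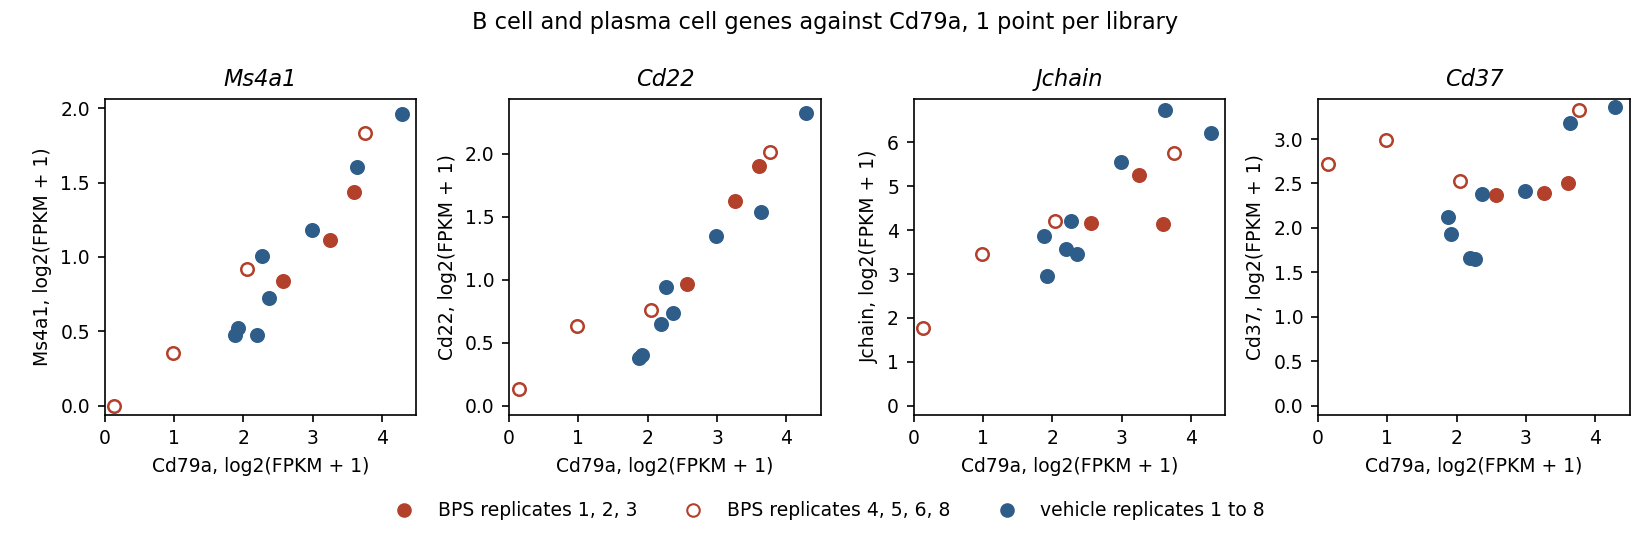
Ms4a1, Cd22, Jchain and Cd37 against Cd79a, all as log2(FPKM + 1), 1 point per library, with BPS 4, 5, 6 and 8 as open points. Ms4a1 and Cd22 follow Cd79a from BPS 4 at the lower left to Veh 8 at the upper right, whereas Cd37 in BPS 4 and BPS 8 lies far above the line of the other libraries.

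The genes most like the B cell genes were sought with a score, the mean of standardized log2(FPKM + 1) over Cd79a, Cd79b, Ms4a1, Cd37, Cd22 and Cr2, among the 12729 genes that reached 1 FPKM in 3 or more libraries. By Spearman's rho over 15 libraries the nearest included Pou2af1 (0.974), Blk (0.942), H2-DMb2 (0.929), Ms4a4c (0.92), Fcmr (0.9), Ciita (0.9), H2-Ob (0.896), Spn (0.896) and Btla (0.893). The median over all these genes was -0.014 and the highest 1% began at 0.649. Mzb1, which was not in the score, ranked 19 with 0.861, and Jchain ranked 26 with 0.836. Pou2af1 is a coactivator of octamer-binding factors in B cells, Blk a kinase of the receptor, and Fcmr a receptor for IgM. Pou2af1 was at 0.03, 0.8 and 1.82 FPKM (lowest, median and highest) in BPS libraries and at 0.27, 0.685 and 2.73 in Veh libraries, with BPS 4 and BPS 8 lowest. Its log2 change, from the fit without a filter, was -0.06 ± 0.282 (limma adjusted p = 0.929), and 0.261 ± 0.333 without BPS 4, 5, 6 and 8 (limma adjusted p = 0.838). Fcmr and Blk were listed at 0 in BPS 4.

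**Figure D4:**
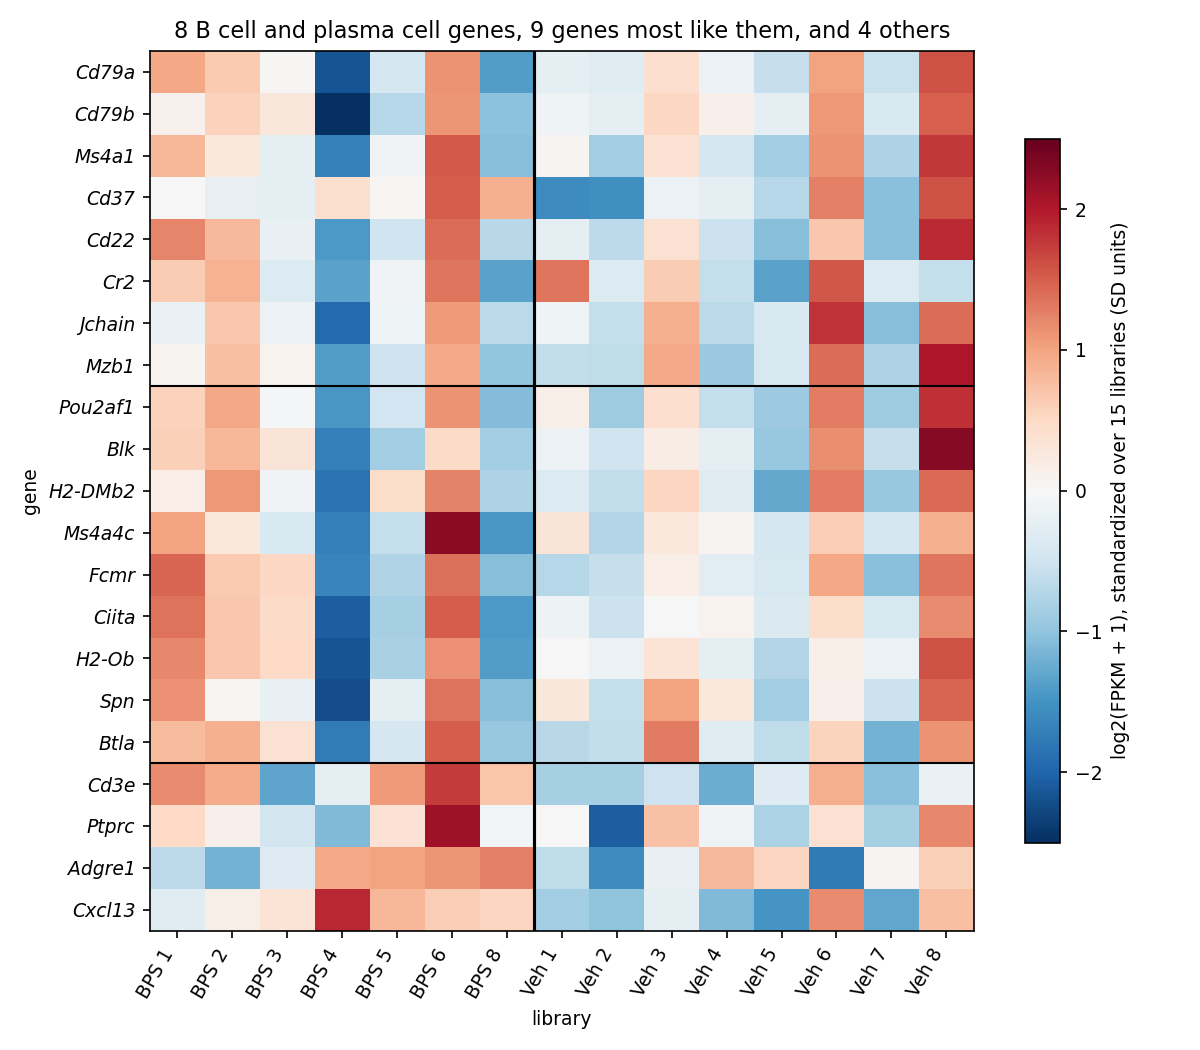
Level of the 8 genes, 9 of the 10 genes most like the B cell score and Cd3e, Ptprc, Adgre1 and Cxcl13 in each library, as log2(FPKM + 1) standardized over the 15 libraries (red high, blue low), with BPS left of the black line and vehicle right of it. The genes of the upper 2 blocks are low in BPS 4 apart from Cd37 and high in BPS 6, and Adgre1 and Cxcl13, the bottom 2 genes, are high in BPS 4, although Cxcl13 is high with them in Veh 6 and Veh 8.

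Genes that act with these 8 were taken from lists, and no tested gene of any list passed the threshold. For B cell receptor signalling, 21 of 25 listed genes were tested, with 11 positive and 10 negative. An unadjusted limma p under 0.05 was found for 4 of the 21, beside 2803 of all 12156 genes tested. The median log2 change was 0.01 beside 0.046 over all genes. The 4 of smallest p were Prkcb, a kinase that relays the signal to NF-kB, the inhibitory Fc receptor Fcgr2b, the lipid kinase subunit Pik3cd and the Ras activator Rasgrp3. Their log2 changes were -0.28 ± 0.0845 for Prkcb, 0.56 ± 0.217 for Fcgr2b, -0.37 ± 0.165 for Pik3cd and -0.48 ± 0.225 for Rasgrp3, with limma adjusted p of 0.106 to 0.216. Prkcb averaged 1.01 ± 0.235 FPKM in BPS and 1.43 ± 0.169 in Veh libraries, and its change was -0.261 ± 0.115 without BPS 4, 5, 6 and 8 (limma adjusted p = 0.598). Without those libraries the change was -0.201 ± 0.218 for Pik3cd, while the sign turned for Fcgr2b, at -0.068 ± 0.149, and for Rasgrp3, at 0.07 ± 0.195, with limma adjusted p of 0.794 to 0.917. Fcgr2b was at 17.83 to 25.13 FPKM in those 4 libraries, at 8.45 to 9.84 in BPS 1, 2 and 3 and at 6.96 to 11.5 in Veh libraries.

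Of 13 transcription factors of the B lineage 5 were tested, with 3 positive, 2 negative and 1 at an unadjusted limma p under 0.05. That level was reached by 2803 of the 12156 genes tested. Ikzf1, a factor of all lymphoid and several myeloid cells, had a log2 change of 0.53 ± 0.2 (limma adjusted p = 0.15), which was -0.01 without BPS 4, 5, 6 and 8. Pax5 and Spib, regulators of B cell identity, were under the filter and listed at 0 in BPS 4. Among 16 receptors for survival, homing and activation 7 were tested, with 4 positive, 3 negative and 1 under that level. Cxcr4, the receptor for the retention chemokine CXCL12, had 4.4 ± 1.04 FPKM in BPS and 2.86 ± 0.783 in Veh libraries, a log2 change of 0.49 ± 0.141 (limma adjusted p = 0.101), and 0.406 ± 0.177 without those 4 libraries (limma adjusted p = 0.598). Of 14 plasma cell and secretion genes 12 were tested, with 6 positive, 6 negative and 2 under it. Txndc5 and Pdia4, which help proteins fold in many secretory cells, had changes of 0.46 ± 0.212 and 0.47 ± 0.216 (limma adjusted p of 0.209 and 0.21), and -0.109 and -0.061 without the 4 libraries.

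The ligands that attract B cells or keep them alive were tested for 7 of 10 genes, with 3 positive, 4 negative and 2 at an unadjusted limma p under 0.05. That level was reached by 2803 of the 12156 genes tested. Cxcl13, the chemokine that draws B cells into follicles, was at 2.98, 5.97 and 15.97 FPKM in BPS libraries and at 0.83, 1.63 and 9.66 in Veh libraries. BPS 4, with the least Cd79a, had the most Cxcl13, while Veh 6 and Veh 8, rich in Cd79a, were the 2 highest of their group at 9.66 and 7.04. The log2 change of Cxcl13 was 1.03 ± 0.393 (limma adjusted p = 0.15), and 0.541 ± 0.519 without BPS 4, 5, 6 and 8 (limma adjusted p = 0.781). Its rho with Cd79a was -0.571 over 7 BPS and 0.905 over 8 Veh libraries, and 0.218 over all 15. Tnfsf13, which encodes the survival factor APRIL, had a log2 change of 0.34 ± 0.133 (limma adjusted p = 0.157), and 0.308 ± 0.189 without those 4 libraries (limma adjusted p = 0.689). Ccl21a, a chemokine of lymph node stroma, had a rho with Cd79a of 0.779 over 15 libraries and was at 0.18 FPKM in BPS 4. It averaged 11.3 ± 7.8 FPKM in BPS and 15.8 ± 9.78 in Veh libraries, with a log2 change of -0.69 ± 0.58 (limma adjusted p = 0.47). Without BPS 4, 5, 6 and 8 the change of Ccl21a had the other sign, 0.177 ± 0.504 (limma adjusted p = 0.92).

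Markers of other cells are given because a lymph node in the sample would bring several of them. The summed FPKM of 15 T cell genes was 12.0, 21.7 and 34.1 (lowest, median and highest) in BPS and 13.8, 23.6 and 31.2 in Veh libraries, BPS 4 being lowest, and the sum had a rho of 0.882 with Cd79a. Cd3e, a subunit of the T cell receptor complex, was at 0.41 to 1.46 FPKM in BPS and 0.43 to 1.11 in Veh libraries, with a rho of 0.349. Pan-leukocyte genes summed to 96.7, 142 and 177 in BPS and to 117, 153 and 195 in Veh libraries. BPS 4 had the lowest sum, but only 2 of these 10 genes were lowest there. Their median log2 change was 0.036, with 8 positive and 2 negative. The 10 MHC class II genes, which B cells share with macrophages and dendritic cells, summed to 175, 686 and 778 FPKM in BPS and to 574, 760 and 1020 in Veh libraries, and 10 of 10 were lowest in BPS 4. Their median log2 change was -0.44 over 9 tested, with 1 positive and 8 negative, and -0.07 without BPS 4, 5, 6 and 8. Macrophage genes had a median of 0.395 with 12 of 12 positive, and -0.095 without those 4 libraries. Of 12 lymph node genes, 9 were in the table and summed to 195, 291 and 495 FPKM in BPS and 157, 203 and 240 in Veh libraries, while Glycam1, Chst4 and Fdcsp are not analysed here. Most of that sum was Mfge8, which other cells of fat also express, at 429.22 FPKM in BPS 4 and 335.8 in BPS 8, and the sum had a rho of -0.086 with Cd79a. An unadjusted limma p under 0.05 was found for 4 of 9 MHC class II and 4 of 12 macrophage genes tested. It was found for 0 of 5 T cell, 0 of 10 pan-leukocyte and 2 of 7 lymph node genes, beside 2803 of all 12156 genes. The part of any of these cell types in the levels of the 8 genes was not tested.

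**Figure D5:**
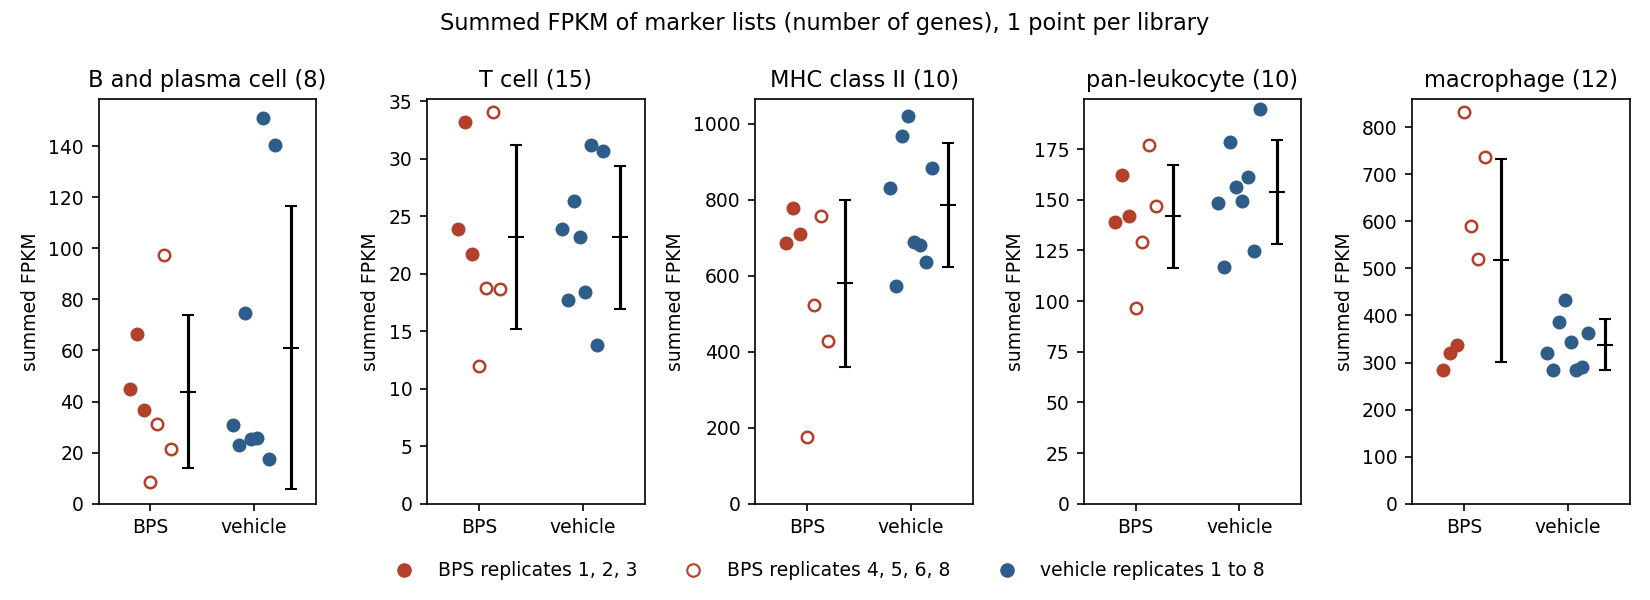
Summed FPKM of the 8 B cell and plasma cell genes and of 4 marker lists (number of genes in parentheses), 1 point per library, BPS left and vehicle right, with mean ± SD (n = 7 and n = 8) and BPS 4, 5, 6 and 8 as open points. By these sums BPS 4 is the lowest library for the 8 genes (8.64), T cell genes (12.0), MHC class II (175) and pan-leukocyte genes (96.7). It is the highest for macrophage genes (832). Taken singly, 5 of 15 T cell, 10 of 10 MHC class II and 2 of 10 pan-leukocyte genes were lowest in BPS 4.

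Tissue markers moved with some of the same libraries. The brown adipocyte genes summed to 1540 FPKM in BPS 4 and 8020 to 21000 in the other BPS libraries, against 10500 to 23100 in Veh libraries. White adipocyte genes summed to 6400 FPKM in BPS 4, 4470 in BPS 8, 3830 in BPS 5 and 2860 in BPS 6. Their sum was at most 2230 in BPS 1, 2 and 3 and at most 3040 in Veh libraries. The median log2 change of the white adipocyte genes was 0.834, with 7 positive and 1 negative, and -0.304 without BPS 4, 5, 6 and 8. Whether the share of white fat bears on the levels of the 8 genes was not tested. Skeletal muscle genes summed to 4.69, 1090 and 10200 FPKM (lowest, median and highest) in BPS and to 72.3, 5940 and 57400 in Veh libraries. Their median log2 change was -2.372, with 10 of 10 negative and 0 of 10 at an unadjusted limma p under 0.05. It was -1.795 without BPS 4, 5, 6 and 8. The muscle sum was 57369.35 in Veh 2, 54387.06 in Veh 6 and 18794.66 in Veh 8, and of these Veh 6 and 8 were high and Veh 2 low for Cd79a, at 11.41, 18.56 and 3.57 FPKM. The rho with Cd79a over 15 libraries was 0.6 for the muscle sum, 0.146 for the brown adipocyte sum and -0.364 for the white adipocyte sum. Without Veh 2, 6 and 8, the log2 change was 0.052 for Cd79a, 0.105 for Jchain and 0.255 for Mzb1, and no gene of the 8 passed the threshold. The 12 immunoglobulin genes that were looked for by symbol had no match among the genes used here and are not analysed.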

How the data were processed

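Brown adipose tissue, labelled as 7 BPS and 8 vehicle samples, was profiled by RNA sequencing. TRIzol extraction, oligo(dT) selection and random-primed cDNA are given per the labels' protocols. Per the submitters' processing notes the build was GRCm38.p6 and the tools were RSEM 1.3.1, Bowtie2, HISAT2 2.1.0 and DESeq2 1.4.5. The authors deposited FPKM to 2 decimals, which divide by transcript length and library total, so abundant transcripts lower all others. Strandedness is not given in the sources used here. The authors also deposited log2 ratios and q-values, used only where named.

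Columns were matched to samples by the names in the labels. Differences were tested on log2(FPKM + 1) with limma 3.58.1 (R 4.3.3; robust spread and a trend with intensity), a scale that understates changes of low genes. Each of the 8 genes was also given an exact permutation test (two-sided, 6435 divisions of the libraries, smallest possible p 0.000155). Members and lists were chosen with earlier results of these data known. The genes named were the 8 members, up to 4 of smallest p in each list, those of the 10 nearest the B cell score and markers of other cells; 1 gene that this rule names is not reported here. Correlations, medians and sums are descriptions with no test. Alternatives were 2 other scalings, other filters and pseudocounts (0.1 and 5), other variance models, the permutation test, a replicate term and libraries left out. FPKM hold no counts, so depth and counting error are unknown.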

Additional observations from a re-analysis of the deposited data

How the results depend on the processing

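None of the 8 genes and no gene of the other lists passed the threshold under any of the 28 alternatives that tested them, 15 of which leave out 1 library. Among all genes tested, 42 were higher and 8 lower in BPS. These counts were 24 and 5 with a filter of 5 FPKM, 8 and 1 with no filter, 15 and 2 with a pseudocount of 5, and 0 and 0 without Veh 2, 6 and 8. Lower calls numbered 20 with median scaling, where 59 were higher, and 1 without BPS 4, 5, 6 and 8, where 33 were higher. With each library left out in turn, higher calls ranged from 0 to 59, lower calls from 1 to 23, the calls among the 8 genes and among the list genes from 0 to 0, and the median log2 change of those of the 8 that were tested from -0.593 to -0.029. Higher and lower calls were 0 and 1 without BPS 8 or Veh 8, 1 and 1 without Veh 2, 6 or 7, 2 and 1 without BPS 3 or 5, 3 and 1 without BPS 4, 9 and 1 without BPS 6, 9 and 3 without Veh 5, 12 and 1 without Veh 3, 26 and 4 without Veh 1, 31 and 3 without BPS 1, 51 and 10 without Veh 4, and 59 and 23 without BPS 2.

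Signs were not stable. The median log2 change of the 8 genes, over those tested, was 0.081 without BPS 4, 5, 6 and 8 and 0.105 without Veh 2, 6 and 8. With quantile normalization Ms4a1 was at 0.07 and Cr2 at 0.005. Without BPS 4, 5, 6 and 8, Cd79a was at 0.449, Cd79b at 0.032, Ms4a1 at 0.135, Cr2 at 0.019 and Mzb1 at 0.218. Without Veh 2, 6 and 8, Cd79a was at 0.052, Ms4a1 at 0.145, Cr2 at 0.001, Jchain at 0.105 and Mzb1 at 0.255. Leaving out 1 library gave ranges of -0.593 to 0.011 for Cd79a, -0.217 to 0.088 for Ms4a1, -0.037 to 0.291 for Cd22 and -0.017 to 0.007 for Cr2, while Cd79b, Jchain and Mzb1 stayed negative and Cd37 positive. The cause was not tested. The limma adjusted p over alternatives ran from 0.241 to 0.943 for Cd37 and from 0.297 to 0.976 for Cd79b, the lowest 2 of the 8. By Pearson's correlation, 6 of the 10 genes nearest the B cell score were shared.

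Whether the replicate numbers pair the samples is unknown. Deviations of same-numbered libraries from their group means correlated at -0.418 to 0.583, above 0.1 in 4 of 7 pairs. Libraries with different numbers were not compared, so these values cannot decide it. With the replicate block, calls were 34 higher and 4 lower, 0 among the 8 genes, and the median over the 6 tested was -0.488. Precision is limited by the spread between libraries, and for Cr2, Cd22 and Ms4a1 by levels near 1 FPKM or below.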
